A study of Mus musculus with 2 samples.

Results

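Striated muscle genes formed a group of 52 genes that encode the contractile filaments, the Z disc, the calcium stores and the energy enzymes of striated muscle, together with 3 transcription factors of the muscle lineage. The members were selected from these same arrays, with their differences between the arrays already known, so their shared direction is a description of the group and not a finding. Of the 52, 50 were measured by a probe set that names 1 gene, among 12393 genes measured in all, and Neb and Mybpc2 were not measured here. The RNA came from cochleae of C57BL/6J mouse embryos at embryonic day 18.5, bred from parents that carried 1 disrupted copy of Igf1, the gene for insulin-like growth factor 1. The dissection kept the otic capsule, the cartilage and bone around the cochlea, and left out the vestibular organs. Cochlear RNA was hybridised to Affymetrix MOE430A arrays, of which 1 titled +/+ and 1 titled −/− were read, with 8 cochleae per array by the labels and pools of 2 embryos by the study's design. The titles and the sample descriptions oppose each other: the +/+-titled array is described as Igf1 null and the −/−-titled array as wild type. The genotype of each array was therefore not settled, and every direction follows the titles alone.

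In a muscle fibre, thick filaments of myosin pull on thin filaments of actin when calcium leaves the sarcoplasmic reticulum and binds troponin. Many of these proteins exist in a slow form, used in slow fibres and often in the heart, and in a fast form, and embryonic forms come before both during development. The cochlear epithelium, nerve and bony capsule contain no striated muscle. The stapedius and tensor tympani, the striated muscles of the middle ear, lie against the capsule. In RNA from whole tissue, fewer cells of a type and less RNA per cell cannot be told apart.

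A level here is the deposited log2 value of a gene's strongest probe set, and a difference is the level on the −/−-titled array minus that on the +/+-titled array, less the median of this quantity over all probe sets that are not controls (0.022). With 1 array per title there was no replicate check, no error over samples and no p-value, and having so few arrays limits how precise any value can be. The only repeat readings were the several probe sets of 1 gene on the same array, whose differences had a pooled SD of 1.10 at levels below 5.63, 0.23 from there to 7.86 and 0.10 above 7.86. Igf1 was read at 11.42 on the +/+-titled array and 11.03 on the −/−-titled array, and so was measured on both, but whether its probe set lies in the disrupted part of the gene was not determined here. The arrays had median levels of 6.58 and 6.63 over all probe sets. The mean over the 18S rRNA control probe sets was 6.57 and 7.37, and the 3′ probe set of Gapdh exceeded the 5′ one by 0.27 and 0.36.

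Stretches of the members' promoters are shown first, because the regulators of muscle genes are defined by the letters they bind. MEF2 proteins and the serum response factor bind A- and T-rich boxes called the MEF2 site and the CArG box, and MYOD1, MYOG and their relatives bind E boxes. RefSeq promoters of the GRCm38.p6 assembly, each from 250 bases before to 50 bases after a gene's start, were found for 42 of the 52 members. Each stretch is 50 bases before the start, written 5′ to 3′ on the gene's own strand, with the searched motifs in capitals. The first 5 show a match to the MEF2 site, and the Myoz2 stretch holds an E box as well. The MEF2 match of Myoz2 lies 33 to 24 bases before the start, and whether it serves as a MEF2 site was not tested.
Casq2 (chr3:102086326-102086375, plus strand): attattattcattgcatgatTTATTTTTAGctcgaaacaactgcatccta
Myoz2 (chr3:123034991-123035040, minus strand): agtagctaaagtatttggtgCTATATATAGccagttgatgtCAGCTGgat
Myh8 (chr11:67277005-67277054, plus strand): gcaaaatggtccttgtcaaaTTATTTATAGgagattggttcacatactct
Ttn (chr2:76982684-76982733, minus strand): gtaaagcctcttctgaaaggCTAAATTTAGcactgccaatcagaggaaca
Pgam2 (chr11:5803847-5803896, minus strand): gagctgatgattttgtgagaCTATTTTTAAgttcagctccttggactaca
The next 4 show a CArG box in an actin, a myosin light chain and a Z disc gene.
Acta1 (chr8:123894819-123894868, minus strand): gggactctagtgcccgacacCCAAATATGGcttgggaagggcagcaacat
Actc1 (chr2:114052893-114052942, minus strand): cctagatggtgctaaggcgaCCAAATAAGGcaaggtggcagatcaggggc
Myl3 (chr9:110763573-110763622, plus strand): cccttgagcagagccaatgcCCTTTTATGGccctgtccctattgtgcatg
Ldb3 (chr14:34588687-34588736, minus strand): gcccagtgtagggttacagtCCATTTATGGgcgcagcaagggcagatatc
The last pair shows the E box in a fast and a slow gene.
Mylpf (chr7:127211537-127211586, plus strand): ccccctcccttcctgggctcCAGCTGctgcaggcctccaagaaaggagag
Tnni1 (chr1:135799333-135799382, plus strand): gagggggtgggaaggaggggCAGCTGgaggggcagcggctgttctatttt

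Over the whole 300-base windows and on both strands, a match to the MEF2 site stood in 8 of the 42 members (19.0%). The share was 3.70% over all 27025 genes with a promoter. The 8 were Casq2, Myh1, Myh4, Myh8, Myoz2, Pgam2, Pvalb and Ttn. A CArG box stood in 5 members (11.9% against 1.81%), namely Acta1, Actc1, Ldb3, Myh4 and Myl3. The E box CAGCTG stood in 21 of the 42 members against 18.3% of all genes, among them all 6 metabolic genes, 5 of 11 slow/cardiac genes and 5 of 9 fast genes. Members with and without a motif had these differences between the arrays. The median difference was 0.90 over the 8 measured members with a MEF2 site and 0.89 over the 33 without. It was 1.01 over the 5 with a CArG box and 0.87 over the 36 without, and 0.83 over the 21 with an E box and 0.96 over the 20 without. A match describes the letters of the window and is not evidence of binding.

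Nearly all members were read higher on the −/−-titled array. Of the 50 measured, 47 were higher there and 3 were lower, namely Myh6, Pln and Myod1. The median difference was 0.82, a ratio of 1.77, with quartiles of 0.69 and 1.06, while the median over all genes was 0.00. A difference above 0.5 was found in 42 of 50 members, and in 12.0% of all genes. A difference above 1 was found in 19 members, and in 5.54% of all genes. Only Myh6 lay below −0.5, where 8.6% of all genes lay. These shares include the many weakly read genes with wide scatter. Among the 6196 genes above the median level of 7.10, 1.9% differed by more than 0.5 and 0.323% by more than 1, and 34 and 14 of the 37 members in that range did. Of the 20 genes above the median level with a difference over 1, 14 were members. A further 3 (Gpd1, Csrp3 and Myom1) were on the lists of other muscle genes, which also hold genes that other tissues make. The remaining 3 were Gh (growth hormone), Thbs4 (a matrix protein of tendon) and Stmn4 (a neuronal stathmin). Because these differences chose the members, nothing further is read from the counts.

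**Figure D1:**
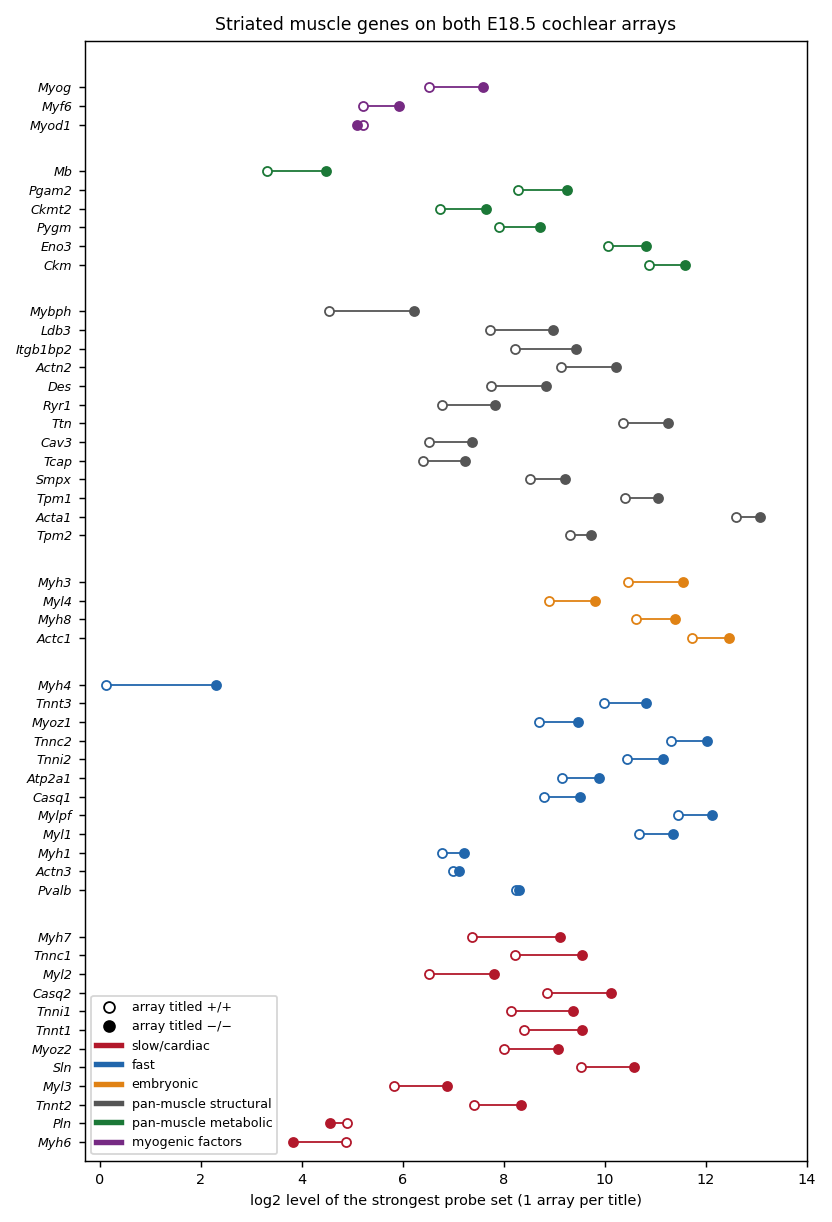
Log2 level of the strongest probe set of each of the 50 measured members (horizontal axis) on the +/+-titled array (open circles) and the −/−-titled array (filled circles), 1 array per title, coloured by class and ordered within a class by the difference. The filled circle lies to the right in 47 members and to the left in Myh6, Pln and Myod1.

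The thick filament genes had a median difference of 0.96 over 12 measured members. Of these, 10 were above 0.5 (12.0% of all genes) and 6 above 1 (5.54% of all genes). Among the 6, Myh4 and Mybph had mean levels below 5.63, in the range of wide scatter. Myh7, the slow and cardiac beta myosin heavy chain, was read at 7.37 and then 9.10 on the +/+- and −/−-titled arrays, a difference of 1.71 or a ratio of 3.26. Myh3, the embryonic heavy chain, was read at 10.46 and 11.54 (difference 1.05). Myh8, the perinatal heavy chain, was read at 10.62 and 11.38 (difference 0.74). These 3 heavy chains were read well above the weakest range of levels. Of the adult fast heavy chains, Myh1 was at 6.77 and 7.20, a difference of 0.41, from a probe set of a type whose probes can match related transcripts. Myh4 was at 0.12 and 2.29, so its difference of 2.14 was made between 2 values at the bottom of the scale. Myh6, the alpha cardiac heavy chain, was at 4.86 and 3.82 (difference −1.06), also in the range where probe sets of 1 gene scattered with an SD of 1.10.

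The heavy chain genes stand in 2 clusters, and each holds weakly read genes. In the RefSeq order on chromosome 11 the genes are Myh3, Myh2, Myh1, Myh4, Myh8 and Myh13, and their differences in that order were 1.05, 1.45, 0.41, 2.14 and 0.74, with Myh13 not measured. Myh2, the IIa fast heavy chain, is not a member and was read at 3.56 and 5.02. On chromosome 14, Myh6 and Myh7 are neighbours, with differences of −1.06 and 1.71. The mean levels of Myh2, Myh4 and Myh6 were in the range of wide scatter, so no spread within a cluster is read from them. The heavy chains of these clusters are similar in sequence, so their probe sets may share signal, which was not tested.

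The 5 light chains among the members, which brace the myosin neck, were all higher on the −/−-titled array. Myl7, the atrial light chain, is not a member and was at 3.40 and 0.00. Myl2, the slow regulatory light chain, was read at 6.51 and 7.80 (difference 1.27), and Myl3, the slow essential light chain, at 5.83 and 6.86 (difference 1.01). Mylpf, the fast regulatory light chain, was read at 11.44 and 12.12, and Myl1, the fast essential light chain, at 10.67 and 11.35, both with a difference of 0.66. Myl4, the embryonic and atrial light chain, was at 8.89 and 9.81 (difference 0.90). Mybph, a myosin-binding protein, was at 4.53 and 6.21, a difference of 1.65 from a low level.

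The thin filament genes, all read above the median level, had a median difference of 0.70 over 11 measured members. Of these, 9 were above 0.5 (12.0% of all genes) and 3 above 1 (5.54% of all genes). The 3 above 1 were the slow troponins, the switch that calcium throws on the thin filament. Tnnc1, the slow and cardiac calcium sensor, was at 8.22 and 9.54 (difference 1.29). Tnni1, the slow inhibitory subunit, was at 8.14 and 9.37 (difference 1.20), and Tnnt1, the slow tropomyosin-binding subunit, was at 8.40 and 9.54 (difference 1.11). Their fast counterparts differed less. Tnnc2 was at 11.30 and 12.02 (difference 0.70), Tnni2 at 10.43 and 11.14 (difference 0.69), and Tnnt3 at 9.99 and 10.81 (difference 0.80). Tnnt2, the form of heart and embryonic muscle, was at 7.40 and 8.34 (difference 0.92). The actins form the filament itself. Actc1, the cardiac actin that embryonic skeletal muscle also makes, was at 11.73 and 12.45 (difference 0.69), and Acta1, the skeletal actin, at 12.58 and 13.06 (difference 0.45). The tropomyosins Tpm1 and Tpm2, which other cell types also make, differed by 0.63 and 0.38.

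Among the Z disc and scaffold genes the median difference was 0.86 over 9 members. Of these, 8 were above 0.5 (12.0% of all genes) and 4 above 1 (5.54% of all genes). Ldb3, which anchors the Z disc, was at 7.72 and 8.97 (difference 1.22). Actn2, the muscle alpha-actinin that crosslinks thin filaments, was at 9.13 and 10.22 (difference 1.07), and Des, the muscle intermediate filament, at 7.74 and 8.83 (difference 1.06). Ttn, the giant spring of the sarcomere, was at 10.36 and 11.24 (difference 0.86), and its cap Tcap at 6.39 and 7.23 (difference 0.82). The calcineurin-binding proteins of the Z disc differed by 1.03 in the slow form, Myoz2, and by 0.73 in the fast form, Myoz1. Smpx, a small cytoskeletal protein, was at 8.51 and 9.21 (difference 0.68). Actn3, the alpha-actinin of fast fibres, stood apart at 6.99 and 7.12, a difference of 0.11.

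Among the genes of calcium handling and the muscle membrane the median difference was 0.83 over 9 members. Of these, 7 were above 0.5 (12.0% of all genes) and 4 above 1 (5.54% of all genes). Casq2, the slow and cardiac calcium buffer of the sarcoplasmic reticulum, was at 8.86 and 10.12 (difference 1.24), read from a probe set whose probes are shared between transcripts. Its fast counterpart Casq1 was at 8.79 and 9.50 (difference 0.69). Ryr1, the calcium release channel, was at 6.77 and 7.82 (difference 1.03), and Atp2a1, the fast calcium pump, at 9.16 and 9.87 (difference 0.69). The small inhibitors of the pump were read unlike each other: Sln was at 9.52 and 10.57 (difference 1.03), while Pln was weak at 4.88 and 4.55 (difference −0.36). Pvalb, the calcium-binding parvalbumin of fast fibres that neurons also make, was at 8.24 and 8.30. Its difference of 0.04 was the smallest among the 37 members above the median level. Cav3, the muscle caveolin, differed by 0.83 and Itgb1bp2, the integrin-binding melusin, by 1.19.

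All 6 metabolic members were above 0.5 (12.0% of all genes), with a median difference of 0.84. Ckm, the cytosolic muscle creatine kinase, was at 10.86 and 11.59 (difference 0.70), and Ckmt2, its mitochondrial partner, at 6.73 and 7.64 (difference 0.89). The glycolytic enzymes Eno3 and Pgam2 differed by 0.73 and 0.95, and Pygm, the muscle glycogen phosphorylase, by 0.79. Mb, the oxygen-binding myoglobin, was near background at 3.31 and 4.48, so its difference of 1.15 is uncertain. The 3 myogenic factors switch on muscle genes. Myog, which drives differentiation, was at 6.52 and 7.59 (difference 1.05), and Myf6, of later fibres, at 5.21 and 5.91 (difference 0.69). Myod1, which marks committed myoblasts, was at 5.20 and 5.09 (difference −0.13). Both Myf6 and Myod1 had a mean level below 5.63, where repeat probe sets scattered with an SD of 1.10.

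Slow/cardiac members differed more between the arrays than fast ones. The median difference was 1.07 over 12 slow/cardiac members, a ratio of 2.10, against 0.69 over 12 fast members, a ratio of 1.61. Among the 10 slow/cardiac members with a mean level above 5, the lowest difference was 0.92 (Tnnt2). Among the 11 fast members above that level, the highest was 0.80 (Tnnt3), so the classes did not overlap there. That limit on the level was set after the data were seen. It leaves out the members that overlap, namely Myh6 and Pln of the slow/cardiac class and Myh4 of the fast class. With the mean over all probe sets, the members kept by the limit overlapped too, with slow/cardiac Sln at 0.54 and fast Tnni2 at 0.90. The medians were 0.82 for the 4 embryonic members and 0.86 for the 13 pan-muscle structural members. The 12.0% and 5.54% of all genes above 0.5 and 1 compare with 10 and 9 of the 12 slow/cardiac members and with 9 and 1 of the 12 fast members. Of those 11 fast members, 8 lay between 0.66 and 0.80, and Myh1, Actn3 and Pvalb lay lower. The difference between the class medians was 0.38, and this comparison has no test, since the members came from the same contrast.

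**Figure D2:**
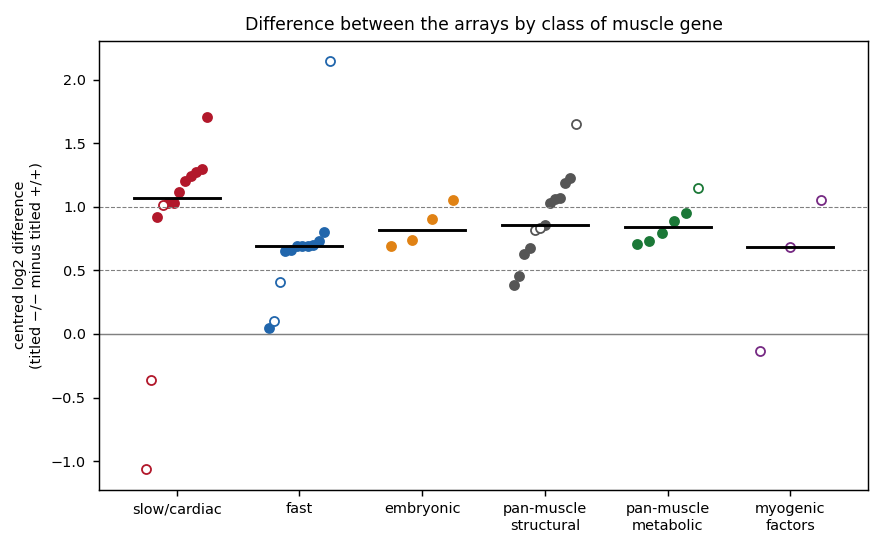
Centred log2 difference of each measured member, −/−-titled minus +/+-titled array (vertical axis), by class, with the class median as a black bar and dashed lines at 0.5 and 1. Members above a level of 7.10, the median gene, are filled, and the others are open. The slow/cardiac median is 1.07 and the fast median 0.69, and the open circle at 2.14 is Myh4.

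The slow/cardiac and fast members of the same gene family were also paired, using members alone. In 7 of 8 such pairs the slow/cardiac gene had the larger difference, by 0.62 for Myl2 over Mylpf, 0.60 for Tnnc1 over Tnnc2, 0.55 for Casq2 over Casq1 and 0.51 for Tnni1 over Tnni2. The gap was 0.36 for Myl3 over Myl1, 0.31 for Tnnt1 over Tnnt3 and 0.29 for Myoz2 over Myoz1. The exception was the pair of Myh7 and Myh4 at −0.44, in which Myh4 was read at the bottom of the scale. A family with only its fast gene among the members, the calcium pumps, had the opposite order. The difference was 0.69 in the fast Atp2a1 and −0.07 in the slow Atp2a2, which many tissues make. The median gap was 0.43 over the 8 pairs and 0.51 over the 7 without Myh4.

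**Figure D3:**
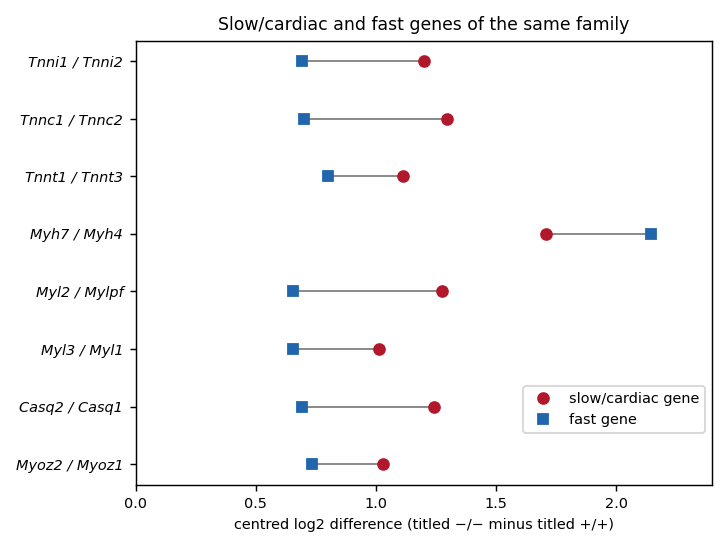
Centred log2 difference, −/−-titled minus +/+-titled array (horizontal axis), of the slow/cardiac gene (red circles) and the fast gene (blue squares) of 8 gene families. The red circle lies to the right in 7 families and to the left for Myh7 and Myh4.

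Since the scatter of differences depends on the level, both classes were also set side by side within a range of levels. From 8 to 10, 6 slow/cardiac members had a median difference of 1.22 (range 1.03 to 1.71) and 4 fast members one of 0.69 (range 0.04 to 0.73), while the median over all 3358 genes in the range was −0.01. From 10 to 14, Sln alone of the slow/cardiac members was present, at 1.03, beside 5 fast members from 0.66 to 0.80. Across the 37 members above the median level, the level and the difference were related by Pearson's r of −0.43 and Spearman's rho of −0.51, a description over genes that share both arrays. Within the slow/cardiac class r was −0.19 over 9 members, and within the fast class it was 0.51 with a rho of 0.03 over 9 members. The strongest probe sets approach the top of the scale, where the highest level was 13.55 and 13.64 on the arrays. How far that compresses their differences was not tested.

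**Figure D4:**
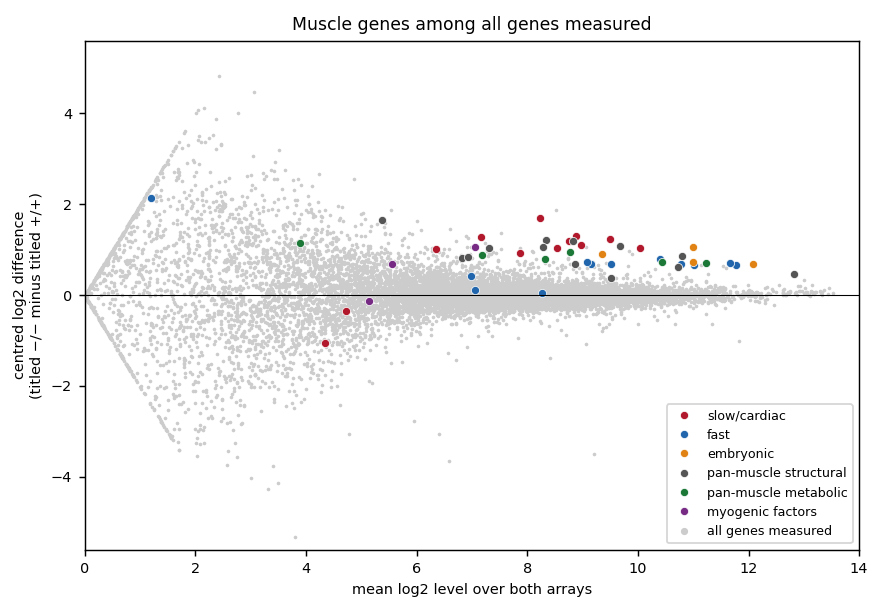
Centred log2 difference, −/−-titled minus +/+-titled array (vertical axis), against the average of the 2 log2 levels (horizontal axis), for all 12393 genes (grey) and the 50 measured members (coloured by class). Below a level of about 5 the grey points fan out, and above 8 most members lie above nearly all grey points.

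Several probe sets read 15 of the members, and these gave 23 weaker readings. Above a level of 5, 10 of 12 weaker readings had the sign of the strongest probe set, and at or below it 5 of 11 did. Well-read repeats were close for Ttn (0.86 and 0.95), Tnnt2 (0.92 and 0.83) and Tnni2 (0.69 and 0.71). Others were further apart. The probe sets of Ldb3 gave 1.22, 0.77 and 0.58, and the 2 of Myl3 above a level of 5 gave 1.01 and 1.52. The 4 probe sets of Tpm2 gave 0.38, 0.32, 0.69 and 0.56. The exceptions above a level of 5 both belonged to Tpm1, whose weaker probe sets gave −0.03 and −0.13 at levels of 9.78 and 8.59 beside 0.63 from the strongest. Tpm1 makes different transcripts in muscle and in other cells, and which of them each probe set reads was not determined here. The weaker probe sets of Des, Myl4, Myoz1, Myh1 and Pln that disagreed in sign were all at or below 5, as was that of Myh6.

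The other genes of striated muscle were read in lists by function. These lists differed in level and also hold genes that other tissues make, so no order of functions is read from their medians. Of 73 measured muscle genes outside the group, 54 were higher on the −/−-titled array and 19 lower, with a median difference of 0.64. Among them 42 were above 0.5 (12.0% of all genes) and 21 above 1 (5.54% of all genes). Only 25 were above the median level, of which 18 were higher and 7 lower, with a median of 0.47. Of those 25, 12 were above 0.5 and 3 above 1, limits passed by 1.9% and 0.323% of all genes above the median level. Sarcomere genes had a median of 0.96 over 24 genes, with 18 above 0.5 (12.0% of all genes) and 11 above 1 (5.54% of all genes). Csrp3, a muscle LIM protein, differed by 1.06 and Fhl1 by 0.67, while Tpm3, which most cells make, differed by −0.02. Genes that couple excitation to contraction had a median of 0.61 over 12, with a range of −0.86 to 2.05. Among its 4 best-read genes, Trdn, which holds the release channel, differed by 1.18 and Atp2a2, the calcium pump of slow muscle that many tissues make, by −0.07. Energy genes had a median of 0.53 over 13, with Cox6a2, the muscle form of a respiratory chain subunit, at 0.83 and Pfkm, the muscle phosphofructokinase, at 0.25.

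Genes of the membrane and of the nerve contact gave the following values. The dystrophin complex and its partners had a median of 0.06 over 9 genes, and its best-read genes Dag1, Sspn, Sgcb and Dmd lay between −0.08 and 0.08. Like the other muscle lists, this list also holds genes that other tissues make. What part those genes had in its median was not tested. The 2 above 0.5 (12.0% of all genes) were Sgca at 1.34 and Capn3 at 0.90. Sgcd lay below −0.5 (8.6% of all genes), at −0.79. Sgca, Capn3 and Sgcd had mean levels below 5.63, where repeat probe sets scattered with an SD of 1.10. The neuromuscular junction list had a median of 0.73 over 8 genes, none of them above the median level. In it 4 genes were above 0.5 (12.0% of all genes) and 2 below −0.5 (8.6% of all genes), the latter Chrne at −0.91 and Rapsn at −0.81. Chrna1 and Chrng, subunits of the muscle acetylcholine receptor, differed by 1.44 and 1.57, and Chrnb1 by 0.08. Chrng, Chrne and Rapsn had mean levels of 5.28, 0.45 and 2.63, all in the range of wide scatter. Myoblast genes had a median of 0.40 over 7, with 4 higher and 3 lower.

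Genes that mark heart muscle and smooth muscle were read as a check of which muscle was present. Of 12 measured cardiomyocyte genes, only Csrp3, which skeletal muscle also makes, was above the median level. The list's median difference was 0.92, with 7 above 0.5 (12.0% of all genes) and 6 above 1 (5.54% of all genes). Below −1 were 2, the weakly read Myl7 and Hand1, as were 504 of the 12393 genes measured. The list's mean level was 3.55 and 4.04, in the range of wide scatter, and Nppa, the atrial natriuretic peptide, was at 3.79 and 4.60. The smooth muscle list had a median difference of 0.45 over 11 genes. Of these, 4 were above 0.5 (12.0% of all genes) and 2 below −0.5 (8.6% of all genes). Acta2, its actin, differed by 0.47 and Tagln by 0.66, while Smtn differed by −0.07.

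Genes of other tissues also differed between the arrays. The 13 cochlear genes had a median difference of −0.22, with none above 0.5 and 4 below −0.5 (8.6% of all genes). Otor, made by the cochlear connective tissue, was at 12.57 and 12.37, and the log2 of the list's summed level was 13.55 and 13.37. Cartilage and bone genes of the capsule had a median of 0.11 over 8, with Col2a1, the main cartilage collagen, at 13.42 and 13.45. In that list 2 genes were above 0.5 (12.0% of all genes), Ibsp at 0.91 and Col10a1 at 0.80. Both were above the median level, where 1.9% of genes passed 0.5. Tendon genes had a median of 0.13 over 7, and all 6 fat genes were higher with a median of 0.67. The 6 lung epithelial genes, which are not cochlear markers, were all lower on the −/−-titled array, with a median of −3.62 and a log2 summed level of 11.22 and 8.21. The 7 pituitary hormone genes had a median of 1.46, with 4 above 0.5 (12.0% of all genes) and 3 below −0.5 (8.6% of all genes), and of the 7 only Gh was above the median level. The log2 of the members' own summed level was 15.14 and 15.90. What part the content of other tissues, or the 18S control difference, had in the muscle differences was not tested.

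**Figure D5:**
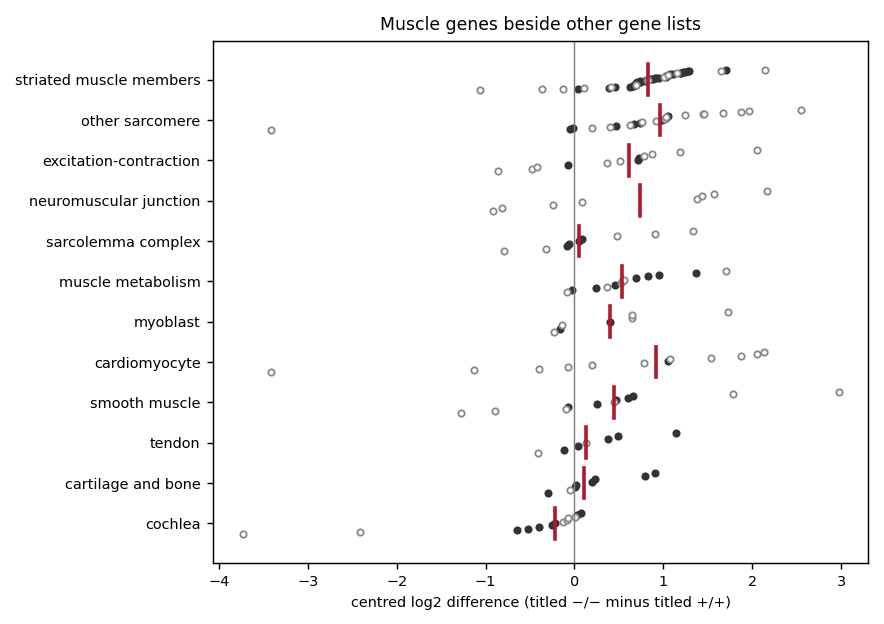
Centred log2 difference, −/−-titled minus +/+-titled array (horizontal axis), of the genes of each list, with the list median as a red bar. Genes above a level of 7.10, the median gene, are filled, and the others are open. The medians are 0.82 for the members, 0.06 for the dystrophin (sarcolemma) complex and −0.22 for the cochlear genes. The lists of other muscle genes, the dystrophin complex among them, also hold genes that other tissues make.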

How the data were processed

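RNA from E18.5 mouse cochleae was labelled with biotin and hybridised to MOE430A arrays by the authors. The authors deposited 1 log2 level for each probe set, with the lowest listed at exactly 0. The methods name MAS5.0, RMA and multi-mgMOS of the PUMA package without versions, and the sources used here do not state which of them gave these values or how the arrays were scaled. Base 2 was inferred from the values, which stay below 16, the log2 of the largest scanner intensity, and exceed its natural log. Arrays were grouped by title, 1 per title, and the labels give no other replicate of either.

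Of 22690 probe sets, 64 controls were left out. Of the remaining 22626, 20380 name 1 gene, 691 several and 1555 none, by the platform annotation, and 20351 matched a RefSeq symbol. For each gene the probe set with the largest mean level stood for it, and no filter on level was applied. Differences were centred on the median of all probe sets that are not controls. Limits of 0.5 and 1 on the log2 scale were counted. Classes, roles and 14 lists of other genes were written by hand. The members and lists were chosen with earlier results of these data known. All members may be named, and of each other list the 4 genes of the highest mean level, and any gene that makes up a count of 5 or fewer. Myh2, Myl7, Igf1 and 18S rRNA were named outside that rule, after their values were seen. No test was run. Alternatives were no centring, quantile normalisation, loess (span 0.3), values raised to the 25th percentile of each array, genes above the median level, another choice of probe set and other class assignments. The steps were tested on simulated data. Computation used pandas 2.3.3 and numpy 2.4.6 in Python 3.11.15, loess came from statsmodels 0.14.6, correlations from scipy 1.17.1 and plots from matplotlib 3.10.9.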

Additional observations from a re-analysis of the deposited data

How the results depend on the processing

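Over 13 alternative settings, 79 of 94 alternative values of the 10 summary results moved by less than the spread between probe sets of a gene (counts by less than 1.5 times), 14 moved by more and 1 reversed. The slow/cardiac minus fast difference stayed above 0 in 12 of 12 alternatives, from 0.14 to 0.53. Among genes above the median level it was 0.51, with a slow/cardiac median of 1.20. With the mean over all probe sets it was 0.48, with an embryonic median of 0.72. With class means in place of medians it was 0.17, which includes Myh4, Myh6 and Pln. For members with levels of 8 to 10, a setting chosen after seeing the data, it was 0.53. With Myh6 and Pln left out, also chosen after seeing the data, it was 0.47. Those are the slow/cardiac members with negative differences, so leaving them out can only favour that class. Reading the second probe set left 15 members, of which 5 were above 0.5 and 1 above 1. Their medians were 0.20 for all, 0.34 slow/cardiac, 0.20 fast, 0.32 pan-muscle structural and 0.15 pan-muscle metabolic, with a slow/cardiac minus fast difference of 0.14, and the embryonic value reversed to −0.56, from Myl4 alone. Of 200 alternative values of single members, 11 moved by more than that spread and 0 reversed a called value. Myh4 went to a difference of 0.00 once low values were raised to the 25th percentile. With the mean over all probe sets, Myh1 was −0.01, Des 0.02, Tpm1 0.16, Myl4 0.17, Myoz1 0.29, Tpm2 0.49, Sln 0.54, Ldb3 0.86, Tnni2 0.90 and Myl3 1.84. In the same setting Pln changed sign, from −0.36 to 0.37, and Myh6 went from −1.06 to −0.36. Both moved by less than the spread between probe sets. No paired analysis was possible because there is 1 array per title. Levels below about 5 are near background and limit what can be said of Myh4, Myh6, Pln and Mb.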
